A study of Homo sapiens with 13 samples.

Results

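The 10 genes described here, TBXT, EOMES, MIXL1, GSC, MESP1, TBX6, SOX17, PRDM1, NANOS3 and NKX1-2, mark the fates that human embryonic stem cells can take besides amnion: primitive streak, mesoderm, endoderm and primordial germ cells. They were picked by gene symbol, by a rule that uses no measured value, though with earlier results of these data known, from the 61546 features of the count tables, and all 10 were found in both experiments. RNA was sequenced in bulk from RUES2, an established human embryonic stem cell line, here carrying a GFP::SMAD4 fusion in every sample. In the time series, 7 libraries covered 0 h (n = 2), 4, 12, 20, 28 and 42 h (n = 1 each) of treatment with 100 ng/mL BMP4, 5 µM IWP2 and ROCK inhibitor (RI), where IWP2 blocks the secretion of Wnt ligands. The labels name that same treatment for both 0 h libraries. In the dose response, 5 libraries held BMP4, IWP2 and RI for 5 h together with LDN-193189 (called LDN here), which inhibits the kinases of BMP receptors, at 0, 10, 30, 100 or 300 nM, and 1 further library, the untreated one, held only mTeSR medium (n = 1 each). The untreated library thus differed in BMP4 and IWP2 together, and in RI as far as its label says, and the effects of these cannot be told apart. Whether the 0 h libraries came from separate cultures is not stated, so their spread may be technical.

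In the embryo, BMP induces WNT3, Wnt signaling induces NODAL, and Nodal and Wnt together switch on the T-box genes TBXT and EOMES and the homeobox genes MIXL1 and GSC in the primitive streak. Cells leaving the streak use MESP1 and TBX6 as they become mesoderm, or SOX17 as they become endoderm. Human primordial germ cells are specified with SOX17, PRDM1 and TFAP2C, after which NANOS3 is expressed. NKX1-2 encodes a homeobox protein known from the caudal epiblast beside the streak, where the body axis elongates.

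For NKX1-2, the most abundant of the members that fell with LDN at 5 h, the stretch directly before its start is shown, with that of MIXL1, the only member whose searched promoter held a match to the motif of the Wnt effectors TCF/LEF. Capitals mark the motif matches, and both stretches were read from RefSeq (GRCh38.p14), for MIXL1 up to the gene start of the GENCODE annotation. MIXL1 lies on the plus strand at chr1:226223414-226223617, and NKX1-2 on the minus strand at chr10:124450036-124450285.

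MIXL1: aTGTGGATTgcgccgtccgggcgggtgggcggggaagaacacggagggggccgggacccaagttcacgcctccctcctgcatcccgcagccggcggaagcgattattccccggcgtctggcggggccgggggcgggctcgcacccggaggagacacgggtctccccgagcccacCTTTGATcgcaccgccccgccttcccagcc

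NKX1-2: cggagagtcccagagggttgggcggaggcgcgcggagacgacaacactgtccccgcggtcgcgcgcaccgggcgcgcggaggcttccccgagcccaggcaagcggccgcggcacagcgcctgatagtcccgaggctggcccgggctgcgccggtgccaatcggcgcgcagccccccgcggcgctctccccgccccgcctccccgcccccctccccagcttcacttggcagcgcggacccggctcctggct

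Promoter windows of 300 bases, 250 before and 50 after each annotated start, were found for 8 of the 10 members (12 windows) and searched on both strands for 5 motifs. In MIXL1, CTTTGAT, the TCF/LEF motif present in 2.62% of all 35116 windows, began at position -76 from the start, and AATCCACA, the motif of the Nodal effector FOXH1 present in 0.817%, was matched at -249 as its reverse complement. GGCGCC, a SMAD motif present in 19.2% of all windows, was matched in NKX1-2 at 41 bases past the start, outside the stretch shown, and in 1 of 3 windows of NANOS3 at -226. GTCTAGAC (SMAD, 0.202% of windows) and AGGTGTGA (T-box, 0.98%) were matched in 0 of the 8 members. A match is a description of the letters and not a measured binding site.

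Total counts were 37957385 to 71333471 per library in the time series and 15600931 to 33989998 in the dose response, so that 3 counts, the limit that a count of 0 allows, correspond to 0.0421 to 0.0790 and to 0.0883 to 0.192 CPM, the counts scaled to the library total. These limits and all exact 95% Poisson intervals cover counting error only. The shallowest library was the untreated one. The share of mitochondrial counts was 2.01% to 7.60% in the time series and 4.22% to 7.89% in the dose response, with the highest values in 0 h replicate 1 and in the untreated library. The 2 experiments used different extraction kits and library types, so levels were compared only within each. Of the 10 pluripotency markers, 10 had at least 1 CPM in both 0 h libraries, where the 8 trophoblast markers summed to at most 0.316 CPM. The 10 amnion markers summed to 16.9 and 20.0 CPM at 0 h and to 7528 CPM at 42 h.

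At their highest in the time series, most members stayed low per transcript length. In the deposited FPKM, which scale fragments by transcript length and library size, the highest value of NKX1-2 was 163.93, that of NANOS3 6.03, of TBX6 3.73, of MIXL1 1.57 and of EOMES 1.16. SOX17 reached 0.71 FPKM, GSC 0.43, MESP1 0.37, PRDM1 0.30 and TBXT 0.18. In the 20 h library NKX1-2, with 163.93 FPKM, lay near the more abundant of the amnion markers, such as GATA3, an early amnion transcription factor (119.84), and HAND1 (206.83). The 10 amnion markers themselves spanned 0.12 FPKM (VTCN1) to 206.83 FPKM in that library. At 42 h the order was far apart, with 21.41 FPKM for NKX1-2, 145.05 for GATA3 and 2027.64 for HAND1. In CPM, NKX1-2 held rank 250 of 61541 human features at 20 h and ranks 5162 and 4827 in the 0 h libraries. The other 9 members together summed to 3.66 and 3.22 CPM at 0 h, 14.8 CPM at 20 h and 9.84 CPM at 42 h. In bulk RNA, few cells with a high level and many cells with a low level cannot be told apart.

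**Figure D1:**
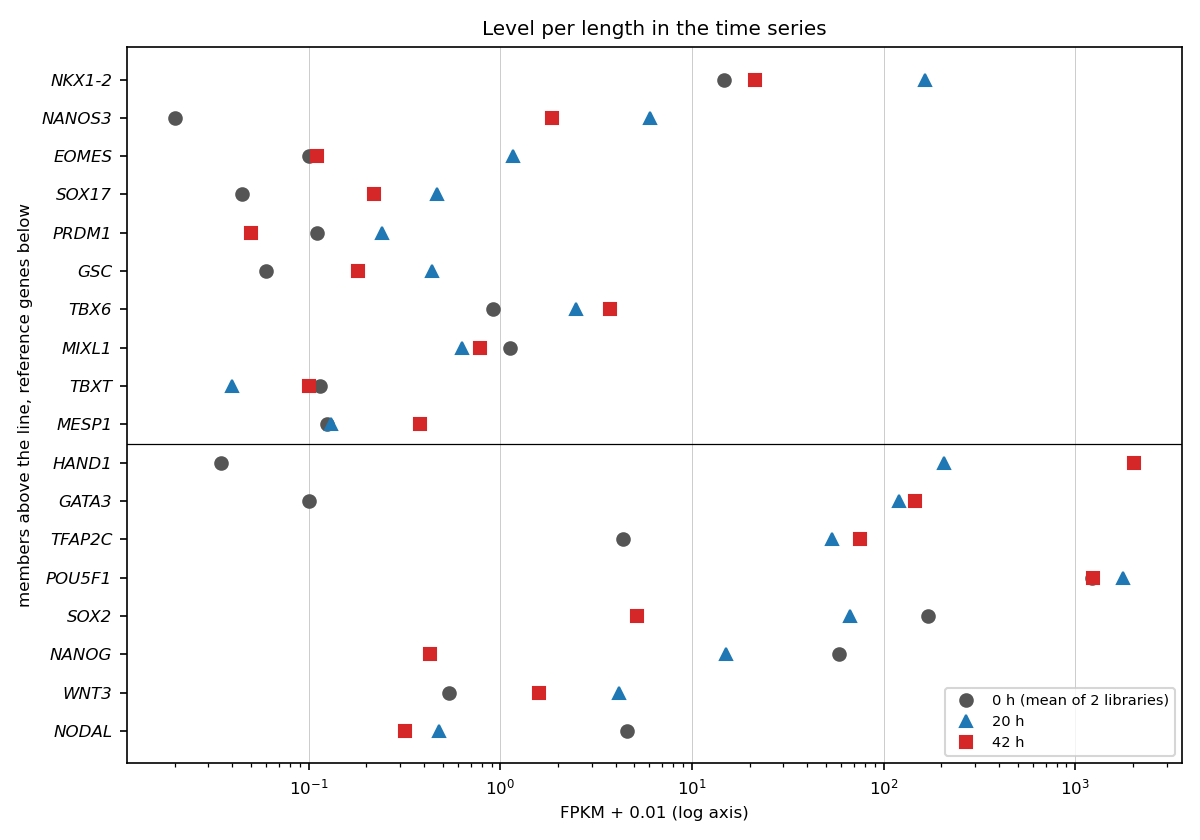
Level per transcript length (FPKM + 0.01, log axis) of the 10 members above the line and of 8 reference genes below it, at 0 h (circle, mean of 2 libraries), 20 h (triangle) and 42 h (square, 1 library each). NKX1-2 at 20 h (163.93 FPKM) lies among the reference genes, while TBXT, PRDM1, GSC, MESP1 and SOX17 stay below 1 FPKM throughout.

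Over time, the members fell into a group that rose and then declined, wholly or in part, 1 that kept rising, and a group with no called change. At 20 h, NKX1-2, NANOS3, EOMES and TBX6 were all higher than at 0 h. By 42 h EOMES had returned close to its 0 h level, and NKX1-2 had declined to 63.2 CPM, beside a 0 h mean of 43.2 CPM. NANOS3 (1.21 against 0.00701 CPM) and SOX17 (0.441 against 0.0676 CPM) were then still above their 0 h means. Each later time was compared with 0 h by the quasi-likelihood test of edgeR, with p-values adjusted (Benjamini-Hochberg) over the 15976 genes that averaged 1 CPM or more. The later libraries are single and were assumed to vary like the 0 h pair, which leaves 1 residual degree of freedom. Only 4 members passed that filter, and NANOS3 and EOMES passed it through the times at which they were high. The other 6 are given from the same fit without the filter (39033 genes).

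Of these 4 members, 3 rose at 4 h, where 4.39% of all genes tested rose, and 3 at 12 h, where 7.04% did. At 20 h 4 rose beside 12.4% of genes, at 28 h 4 beside 13.3% and at 42 h 3 beside 19.9%, and 0 of the 4 fell at any time. With DESeq2, 2 rose at 4 h, since the call of EOMES was lost there (adjusted p = 0.142). Without the filter, 7 of 10 rose at 20 h (6.35% of genes), 7 at 28 h (7.01%) and 4 at 42 h (10.6%). These counts describe low transcripts that the filter treats unequally and are read as no more than the sum of the genes described next.

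**Figure D2:**
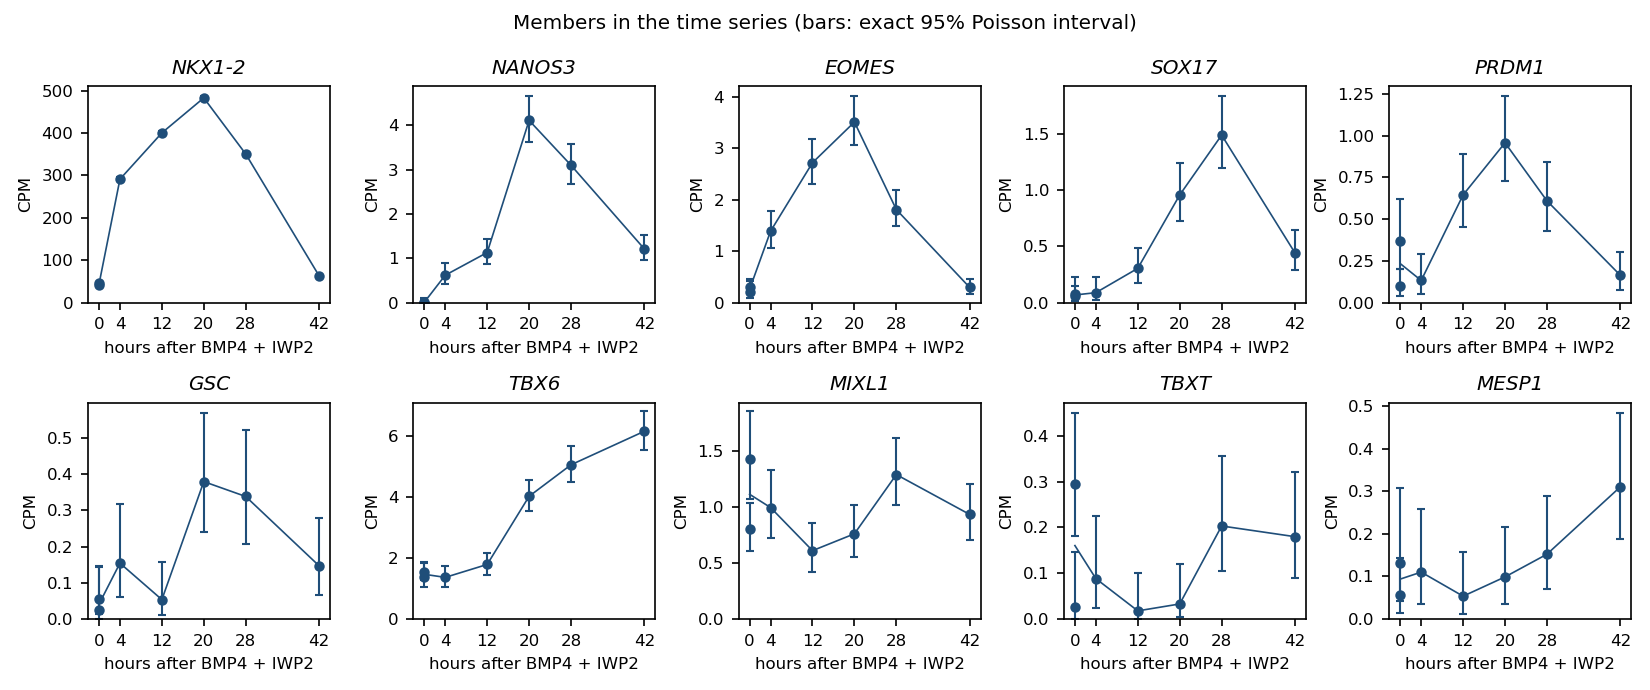
CPM of each member against hours of BMP4 and IWP2 in the 7 time-series libraries, with exact 95% Poisson intervals as bars and a line through the times (mean of 2 libraries at 0 h). NKX1-2, NANOS3, EOMES and PRDM1 are highest at 20 h and SOX17 at 28 h, TBX6 is highest at 42 h (6.16 CPM), and the 2 libraries at 0 h lie apart for TBXT and PRDM1. The vertical axes differ between genes.

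Among the streak factors, EOMES, a T-box gene of the anterior streak and definitive endoderm (ENSG00000163508, chr3:27715949-27722711, minus strand), gave a pulse. It had 0.211 and 0.308 CPM in the 0 h libraries, then 1.39, 2.72, 3.52, 1.81 and 0.294 CPM at 4, 12, 20, 28 and 42 h. The 4 values from 4 to 28 h all lay above both 0 h libraries, and the 42 h library lay between them. EOMES rose by 3.74 ± 0.49 (log2, SE) at 20 h (edgeR, adjusted p = 8.7e-13), from 30 counts over both 0 h libraries to 213 counts. At 42 h its log2 difference from 0 h was 0.37 ± 0.61 (edgeR, adjusted p = 0.679), and its CPM was 0.0837 times that of the 20 h library (exact 95% interval 0.0487 to 0.135).

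TBXT, the gene of Brachyury and the classical streak marker (ENSG00000164458, chr6:166157656-166168700, minus strand), stayed near the counting limit. Its counts were 1 and 21 in the 0 h libraries, then 4, 1, 2, 12 and 11 at 4, 12, 20, 28 and 42 h. The highest count of the series was thus in a 0 h library, and the 2 libraries at 0 h differed 11.2-fold in CPM (exact 95% interval 1.80 to 462), more than counting error gives. No time was called against 0 h in the fit without the filter, where the log2 difference was -2.35 ± 1.20 at 20 h (edgeR, adjusted p = 0.282) and 0.29 ± 0.88 at 42 h (adjusted p = 0.934). TBXT shares 22 exon overlaps with LNCDAT, a noncoding gene on the opposite strand that had at most 0.135 CPM, and the counting is not stated to use strand.

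MIXL1, a homeobox gene of streak and mesendoderm (ENSG00000185155, chr1:226223618-226227060), was present at about 1 CPM throughout. The 0 h libraries had 1.42 and 0.799 CPM, and the later ones 0.993, 0.609, 0.759, 1.29 and 0.931 CPM in order of time. Only the 12 and 20 h values lay outside the range of the 0 h pair, below it. No time was called, with a log2 difference of -0.88 ± 0.48 at 12 h (edgeR without filter, adjusted p = 0.547) and 0.11 ± 0.45 at 42 h (adjusted p = 0.976).

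GSC, a homeobox repressor of the anterior streak and organizer, was detected weakly. Its counts were 1 and 4 in the 0 h libraries and, in order of time, 7, 3, 23, 20 and 9 in the later ones. The 20 and 28 h counts lay above all the others, and GSC rose by 3.06 ± 0.88 (log2, SE) at 20 h (edgeR without filter, adjusted p = 0.00781) and by 2.93 ± 0.89 at 28 h (adjusted p = 0.0123). Its highest level remained at 0.380 CPM.

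TBX6, a T-box gene of paraxial mesoderm and its precursors (ENSG00000149922, chr16:30085793-30091924, minus strand), was the member that kept rising. From 1.40 and 1.54 CPM in the 0 h pair it went to 1.37, 1.79, 4.03, 5.06 and 6.16 CPM over the 5 later times. The values up to 12 h lay close to the 0 h pair and the last 3 times lay above all of them. The log2 rise against 0 h was 1.49 ± 0.40 at 20 h (edgeR, adjusted p = 0.00215), 1.85 ± 0.40 at 28 h (adjusted p = 4.2e-05) and 2.30 ± 0.40 at 42 h (adjusted p = 7.3e-08). At 20 h the call was lost with DESeq2 (adjusted p = 0.0686).

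MESP1, the gene of a factor of early mesoderm, had 5 and 4 counts at 0 h and 5, 3, 6, 9 and 19 counts at the later times. Its 42 h count was the highest, and the log2 difference there was 2.15 ± 0.89 (edgeR without filter, adjusted p = 0.0724), which did not pass the threshold.

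The germ cell and endoderm factors SOX17, PRDM1 and NANOS3 all rose and then declined, with their highest levels at 28 h for SOX17 and at 20 h for the other 2. SOX17, which takes part in both endoderm and human germ cell specification, had 3 and 4 counts in the 0 h pair and 4, 17, 58, 88 and 27 counts at the later times. All libraries from 12 h on lay above the 0 h pair. SOX17 rose by 3.88 ± 0.62 (log2, SE) at 20 h (edgeR without filter, adjusted p = 1.9e-08), by 4.56 ± 0.60 at 28 h (adjusted p = 2.0e-12) and by 3.04 ± 0.67 at 42 h (adjusted p = 6.4e-05). Its highest level, at 28 h, was 1.49 CPM.

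PRDM1, which encodes BLIMP1, the repressor of somatic genes in germ cell precursors, had 14 and 7 counts at 0 h and 6, 36, 58, 36 and 10 counts at the later times. The 12, 20 and 28 h counts lay above the others. PRDM1 rose by 2.24 ± 0.56 (log2, SE) at 20 h (edgeR without filter, adjusted p = 0.00117) and by 1.63 ± 0.58 at 28 h (adjusted p = 0.0481), and at 42 h the difference was -0.03 ± 0.71. The 28 h call was lost when the filter was set at 0.2 CPM (adjusted p = 0.0592). The CPM of 0 h replicate 2 was 0.266 times that of replicate 1 (exact 95% interval 0.0909 to 0.704), so the baseline itself varied beyond counting error.

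NANOS3, an RNA-binding protein needed for the survival of germ cells (ENSG00000187556, chr19:13862063-13880757), started from almost nothing. The 0 h libraries held 0 and 1 counts, and those at 4, 12, 20, 28 and 42 h held 28, 63, 249, 183 and 74. All 5 later libraries lay above both 0 h libraries, and NANOS3 was called at all 5 times (edgeR, adjusted p at most 6.5e-08, at 4 h). Its CPM at 20 h (4.11) was 449 times the 0 h level, with an exact 95% interval of 79.9 to 17809 that reflects the single count at 0 h. The 42 h level (1.21 CPM) was 0.294 times that of 20 h (0.224 to 0.383).

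NKX1-2 (ENSG00000229544, chr10:124445243-124450035, minus strand) had the most abundant pulse of the 10. It had 40.8 and 45.6 CPM in the 0 h libraries (mean 43.2 ± 3.40, SD, n = 2) and then 291.0, 400.2, 483, 350.4 and 63.2 CPM over the later times. The libraries from 4 to 28 h lay several-fold above the 0 h pair. NKX1-2 rose by 2.67 ± 0.33 (log2, SE) at 4 h (edgeR, adjusted p = 5.2e-14) and by 3.52 ± 0.33 at 20 h (adjusted p = 2.0e-24). At 42 h its CPM was 1.44 times the 0 h level, a log2 rise of 0.78 ± 0.33 in the fit (adjusted p = 0.0470), and this call was lost with library totals in place of TMM factors (log2 difference 0.55, adjusted p = 0.179). Thus 60.3% of its 20 h level was present by 4 h, beside 39.5% for EOMES and 15.0% for NANOS3, and 13.1% was left at 42 h. A noncoding gene on the opposite strand, ENSG00000271434, overlaps exons of NKX1-2 and had at most 2.12% of its counts in any time-series library, at 20 h, and at most 0.943% in the dose response. Without strand in the counting, reads of the pair could be assigned to either.

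**Figure D3:**
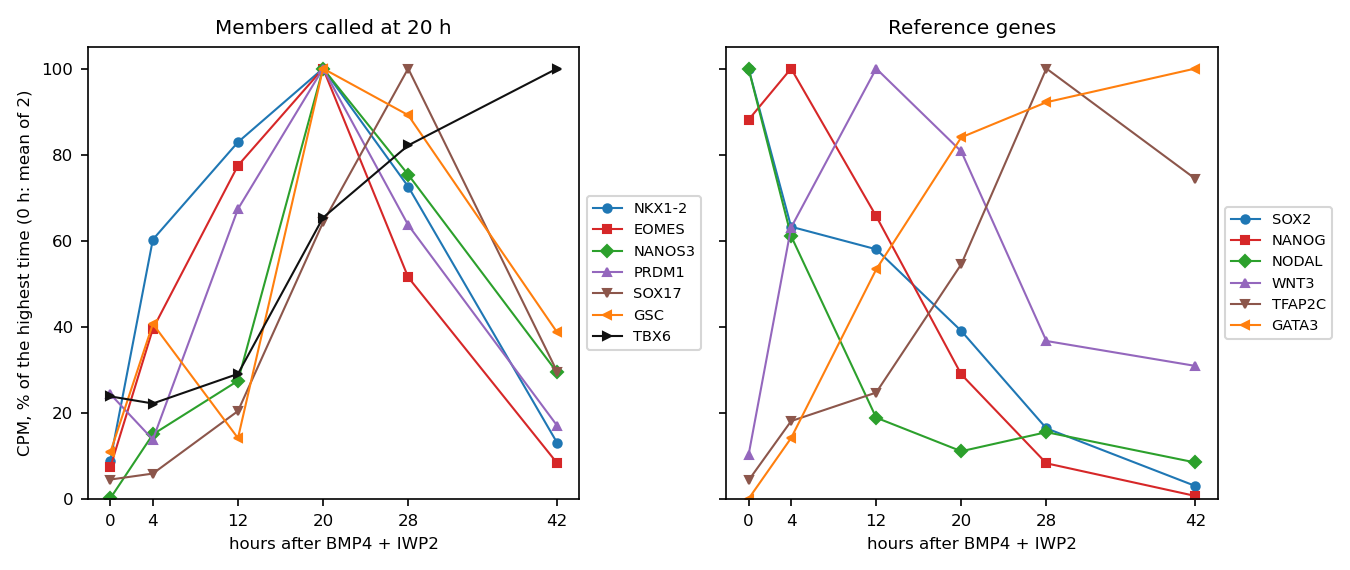
CPM at each time as a percentage of the gene's own highest time (0 h is the mean of 2 libraries, later times 1 library each), for the 7 members called at 20 h on the left and 6 reference genes on the right. NKX1-2 is at 60.3% of its highest level by 4 h, SOX17 peaks at 28 h, and TBX6 is highest at 42 h, as is GATA3.

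A straight line over hours asked whether a member rose or fell steadily over the 7 libraries. TBX6 alone of the 4 members tested was called, with a slope of 0.063 ± 0.0083 (log2 per hour, SE; edgeR, adjusted p = 9.4e-04), against a background of 19.2% of genes called as rising. The slope of NKX1-2 was 0.030 ± 0.044 per hour (adjusted p = 0.622) and that of EOMES 0.029 ± 0.048 (adjusted p = 0.659), and a straight line takes no account of a rise followed by a fall. With a square term added, 4 of 4 members were called (47.7% of genes were), with adjusted p = 0.00225 for NKX1-2 and 6.9e-04 for EOMES. NANOS3, with a slope of 0.12 ± 0.055 (adjusted p = 0.117), was called without the 42 h library (adjusted p = 0.0180).

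At 5 h the dose response asked which members depended on the level of BMP signaling, with LDN entered as steps 0 to 4. NKX1-2 fell with LDN in strict order. It had 225.2 CPM with 0 nM, 161.5 with 10 nM, 120.1 with 30 nM, 69.0 with 100 nM and 38.4 with 300 nM LDN, and 38.5 CPM in the untreated library. No 2 of the 5 BMP4 libraries had overlapping Poisson intervals, while the 300 nM and untreated levels had a ratio of 0.999 (exact 95% interval 0.906 to 1.10). NKX1-2 fell by 0.61 ± 0.031 on the log2 scale per LDN step (edgeR, adjusted p = 7.0e-08), the only 1 of 3 members tested to be called, where 10.9% of the 14907 genes tested fell. The 0 nM library was 5.86 times the 300 nM one (5.52 to 6.23).

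NANOS3 followed the same order at a far lower level. Its counts were 15, 11, 5, 2 and 0 with 0, 10, 30, 100 and 300 nM LDN, and 0 in the untreated library. The limit of 3 counts per library stands here for each 0, and the 15 counts are taken as exact. On that footing the 0 nM level was at least 5.77-fold higher than with 300 nM and at least 2.71-fold higher than untreated. With the counting error of both libraries included, the exact 95% lower limits of these ratios were 4.14 and 1.95. In the fit without the filter NANOS3 fell with LDN (adjusted p = 0.00299), the second of 2 members of 10 to be called there, beside 5.26% of the 31851 genes.

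EOMES was present in all 5 BMP4 libraries, and its fall over the LDN steps was not called. It had 2.71 CPM with 0 nM, 2.03 with 10 nM, 2.89 with 30 nM, 2.03 with 100 nM and 1.18 with 300 nM LDN, and 0.128 CPM in the untreated library, which held 2 counts. The 4 libraries up to 100 nM were in no order of dose, and the 300 nM library was the lowest of the 5. Its exact 95% interval (0.837 to 1.61 CPM) lay below that of 0 nM (2.15 to 3.39 CPM). It overlapped those of 10 and 100 nM. The slope was -0.22 ± 0.090 per LDN step (edgeR, adjusted p = 0.111) and shrank to -0.06 (adjusted p = 0.744) without the 300 nM library. With 300 nM LDN, EOMES was still 9.18 times the untreated level (exact 95% interval 2.38 to 78.5), whereas NKX1-2 was at its untreated level in that same library. This ratio compares 2 libraries and was chosen after the values were seen.

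Past 2-fold on the log2(CPM + 0.5) scale, 2 of the 3 members tested, NKX1-2 and EOMES, were higher with 0 nM LDN than untreated (4.79% of genes were), with no replicate and no test. The 0 nM level was 5.86 times the untreated level for NKX1-2 (exact 95% interval 5.38 to 6.38) and 21.2 times for EOMES (5.67 to 178).

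**Figure D4:**
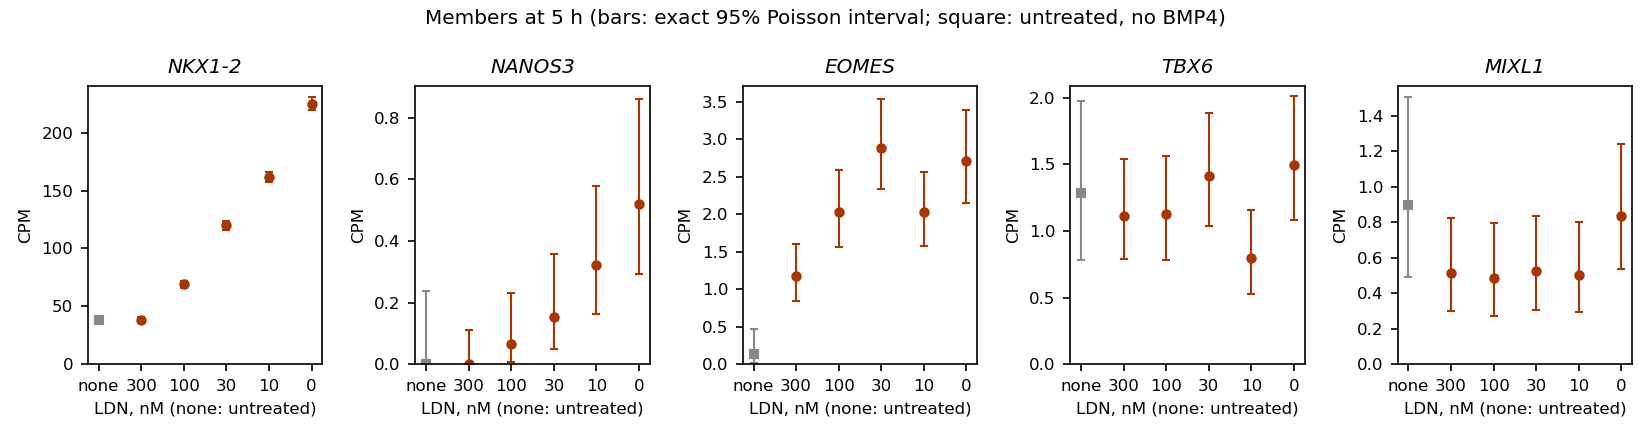
CPM of 5 members at 5 h in the untreated library (square, no BMP4) and with BMP4 and 300, 100, 30, 10 or 0 nM LDN (circles, 1 library each), with exact 95% Poisson intervals as bars. NKX1-2 climbs from 38.4 to 225.2 CPM as LDN is lowered, NANOS3 climbs from 0 counts, EOMES is at or above 1.18 CPM with BMP4 at every dose, and TBX6 and MIXL1 show no order. The vertical axes differ between genes.

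The remaining members gave no dose dependence that could be detected at this depth. TBX6 had 43, 27, 46, 35 and 37 counts from 0 to 300 nM LDN and 20 untreated, with a slope of -0.04 ± 0.098 (edgeR, adjusted p = 0.801). MIXL1 had 24, 17, 17, 15 and 17 counts and 14 untreated, with a slope of -0.15 ± 0.13 in the fit without the filter (adjusted p = 0.589). Counts of TBXT, GSC, MESP1 and SOX17 were at most 5 in any of the 6 libraries, and those of PRDM1 at most 9. The 5 h time precedes the 12 h library, the earliest in which the SOX17 count lay above those at 0 h in the other experiment.

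The upstream signals and neighbouring markers moved unequally. In the time series WNT3, the ligand whose secretion IWP2 blocks, went from 1.32 and 1.85 CPM at 0 h to 15.5 CPM at 12 h, a log2 rise of 3.23 ± 0.33 (edgeR, adjusted p = 6.2e-20). NODAL went the other way, from 5.14 and 7.93 CPM to 0.726 CPM at 20 h, and its log2 fall against 0 h was -3.13 ± 0.50 (adjusted p = 8.5e-09). LEFTY1, a Nodal antagonist that Nodal itself induces, had 15.1 and 20.1 CPM at 0 h and 0.198 CPM at 20 h. The Wnt targets that could be tested differed in direction: at 20 h AXIN2 fell (log2 -2.62 ± 0.36, adjusted p = 9.0e-12), while LEF1 (1.45 ± 0.37, adjusted p = 8.3e-04) and NKD1 (0.99 ± 0.30, adjusted p = 0.0086) rose. With LDN, WNT3 (-0.46 ± 0.048 per step, adjusted p = 2.1e-05) and NKD1 (-0.16 ± 0.046, adjusted p = 0.0257) fell, while LEFTY1 (0.64 ± 0.067, adjusted p = 2.4e-05) and AXIN2 (0.35 ± 0.020, adjusted p = 1.3e-07) rose. NKX1-2, EOMES and NANOS3 were thus highest in the 20 h library, where NODAL, LEFTY1 and AXIN2 were lower than at 0 h. LEF1 and NKD1 were higher there. The 6 Wnt targets together summed to 76.8 and 72.5 CPM at 0 h and to 33.3 CPM at 20 h. AXIN2 alone averaged 64.0 CPM at 0 h, so the sum mostly follows this gene. SP5 and DKK1, too low to be tested, had 0.924 and 0.363 CPM at 20 h, above their 0 h means of 0.0412 and 0.0754 CPM. LGR5, also too low, had at most 0.254 CPM later, beside a 0 h mean of 0.214 CPM.

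Of the 21 other streak and mesoderm genes, 12 could be tested over time: 3 rose and 4 fell with hours (19.2% and 17.5% of all genes). Their median slope was -0.0397 log2 per hour beside -0.000112 over all genes. With LDN, 9 could be tested, of which 2 rose and 4 fell (10.4% and 10.9% of all genes). TBX3 (0.27 ± 0.030) and APLNR (0.15 ± 0.011) were the risers that changed most by 42 h. TBX3 alone held 701.6 of the 767.9 CPM of this list at 42 h. Its slope per LDN step was -0.94 ± 0.093, beside a median of -0.0935 for this list and -1.03 for the amnion markers. Of 10 endoderm genes, 4 could be tested and 1, SOX7, rose with hours (19.2% of all genes). With LDN 2 could be tested and 1, HHEX, fell (10.9% of all genes). Against 0 h, 3 of the 4 rose at 4 h (median log2 difference 4.15 beside -0.01 over all genes) and 3 at 42 h (3.82 beside -0.01). At these times 4.39% and 19.9% of all genes rose. GATA4, GATA6 and HHEX had 0 h means of 0.0622, 0.141 and 0.347 CPM and passed the filter through their high later libraries. These counts and medians thus favour genes that rose. GATA6 and GATA4, transcription factors of endoderm and also of extraembryonic tissue, rose at all 5 times, GATA6 by 4.25 ± 0.51 and GATA4 by 4.04 ± 0.63 at 4 h (log2, SE). HHEX, a homeobox gene of anterior endoderm, had 0.316 and 0.379 CPM at 0 h and 7.44 CPM at 4 h, and was back at 0.147 CPM by 42 h.

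Of the 16 other germ cell genes, 11 could be tested, and 6 rose and 3 fell with hours (19.2% and 17.5% of all genes). With LDN, 13 could be tested and 2 rose and 3 fell (10.4% and 10.9% of all genes). Of this list, NANOG, POU5F1 and PRDM14 also stand among the pluripotency markers. TFAP2C, shared by germ cells and amnion, rose from 10.2 and 10.4 CPM to 237.0 CPM at 28 h, while PRDM14 and NANOG fell, NANOG to 1.08 CPM and PRDM14 to 12 counts at 42 h. POU5F1 had 1003 and 1721 CPM at 0 h and 1145 CPM at 42 h, with no called trend (adjusted p = 0.750). SOX2, whose loss marks germ cells as well as amnion, fell from 389.1 and 374.6 CPM to 11.6 CPM. The highest levels of SOX17 (28 h), PRDM1 (20 h) and NANOS3 (20 h) lay in libraries with 62.7 and 149.1 CPM of SOX2.

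For scale, 7 of 7 BMP targets and 6 of 7 tested amnion markers fell with LDN (10.9% of all genes). Of 10 pluripotency markers, 6 rose with LDN (10.4% of all genes). Over time, 7 of 10 amnion markers rose and 7 of 10 pluripotency markers fell (19.2% and 17.5% of all genes). Of 3 tested Wnt targets 1, AXIN2, fell with hours, whereas at 20 h 2 rose and 1 fell (12.4% and 6.01% of all genes). No trophoblast marker of 8 passed the filter.

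Over both experiments, the genes nearest to NKX1-2 in pattern were GRIK3 (Pearson r = 0.983) and EGLN3 (0.975), among 11143 genes averaging 5 CPM or more in both experiments. Nearest to EOMES were BICD2 (0.965) and BCR (0.961), and nearest to TBX6 were SEPTIN6 (0.975) and MPP1 (0.970). These values describe log2(CPM + 0.5) centred within each experiment over 13 libraries that share depth and treatment.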

How the data were processed

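Bulk RNA-seq of 13 libraries was analysed: 7 of rRNA-depleted total RNA in the time series and 6 of polyA RNA in the dose response. The authors trimmed reads with Cutadapt, aligned them to GRCh38 (ENSEMBL) with STAR 2.7.8a and deposited RSEM 1.3.3 estimated counts per gene, whole as deposited and rounded here, and FPKM, which the authors scaled by library and effective transcript length. The ENSEMBL release and strand setting are not given in the sources used here. CPM on library totals were computed here. Tests used edgeR 4.0.16 (quasi-likelihood, TMM, R 4.3.3) over human genes averaging 1 CPM or more, threshold 0.05. The SE of edgeR fits were derived from the test, as the absolute log2 value over the square root of its F statistic. The 5 features that are not human held at most 0.00301% of counts and were left out. Scripts were tested on simulated data. Count ratios have exact conditional intervals, and those against 0 h pool the counts of the 2 libraries, whereas 0 h means average their CPM. Alternatives included DESeq2 1.42.0, other scaling, other filters, other forms of time and dose, and left-out libraries. Coordinates are from GENCODE 44 (GRCh38). Positions of motifs count from the RefSeq start.

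The members and all lists were chosen with earlier results of these data known. Named were every member, reference genes (NODAL, WNT3, GATA3, SOX2, NANOG, POU5F1, TFAP2C), up to 3 called genes of each list with the largest change from 0 to 42 h and the 2 steepest called with LDN, plus the 2 genes most correlated with each member above 1 CPM in both experiments. The values of HAND1 and VTCN1 at 20 h, LEF1, GATA4 and GATA6 and the comparison of 300 nM LDN with untreated were chosen after the data were seen.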

Additional observations from a re-analysis of the deposited data

How the results depend on the processing

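The slope of TBX6 over hours and the slope of NKX1-2 over LDN steps were called under every alternative run. The number of members called as changing with hours was 1, and was 2 without the filter and with a filter of 0.2 CPM (SOX17 added), 2 with DESeq2 and with the order of the times (NANOS3 added), 4 with a square term, and 1 to 2 when 1 library was left out. With LDN it was 1, and 2 without the filter and with a filter of 0.2 CPM (NANOS3 added). At 20 h, at 28 h and over all later times, 4 members were called and 7 without the filter, since fewer members are tested with it. Against 0 h, EOMES at 4 h was lost with DESeq2 (adjusted p = 0.142), as was TBX6 at 20 h, NKX1-2 at 42 h was lost with library totals and PRDM1 at 28 h with a filter of 0.2 CPM. The cause was not tested. Library totals also shifted the whole table: 2121 genes rose and 4069 fell with hours (3072 and 2793 with TMM), and 2415 rose and 3963 fell at 42 h (3173 and 2851), where the median log2(CPM + 0.5) difference of all genes was -0.23 on library totals and 0.07 with TMM. All genes called numbered 5865 with hours and 3259 without 42 h, 3180 with LDN steps, 391 with LDN in nM, 1978 without 0 nM and 2102 without 300 nM, 802 at 4 h and 455 with DESeq2, and 1547 at 12 h and 971 with DESeq2. The members' log2(CPM + 0.5) differences were recomputed with other scaling, pseudocounts, FPKM or left-out 0 h libraries. Of these, 254 stayed within and 46 moved beyond their error (the SD of the 0 h libraries, or the counting interval for doses). Dose comparisons with a count of 0 have an unbounded interval and stayed within it by construction. None past 2-fold changed sign. Smaller differences could, as that of MIXL1 at 42 h did (-0.17 on library totals, 0.06 with TMM). The uncalled hour slopes of EOMES and NKX1-2 also turned slightly negative (-0.0021 and -7.4e-05) without 0 h replicate 1. Leaving out a 0 h library leaves the comparisons with 0 h no residual degree of freedom, so these were not tested. No paired analysis was possible because only 0 h has a second library. Every later time and dose is 1 library, and members under about 10 counts could show only large changes.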
